A study of Daphnia magna with 12 samples.

Results

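Genes higher in every library of old females than in any of young ones were examined, under further limits on fold, level and young reads. The species was the water flea Daphnia magna, a freshwater crustacean that reproduces clonally. The study measured RNA in 12 libraries from individually housed females of 1 clone, GB-EL75-69, with the tissue labelled as whole body, somatic, and no treatment but age. Of these, 4 libraries came from young females aged 20 days that were reproducing. Another 4 came from old reproducing females and 4 from old females labelled non-reproducing, the old ones aged 130 to 170 days. All 3 groups thus share genotype, sex and food, the young group holds reproducing animals only, so that old non-reproducing and young females differ in both age and reproduction. The labels do not say whether a library is 1 animal or a pool. Of 21456 gene models in the deposited count table, 280 met the rule for inclusion and are called members here.

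A female Daphnia produces broods in a brood chamber throughout adult life, and both survival and fecundity decline with age in the laboratory. In some old females egg production stops, and it can resume later. The study's title concerns this late return of reproduction and the metabolism of lipid and protein. In Daphnia, lipid and protein laid down in fat cells and in yolk supply each brood. The deposited gene models carry IDs made of a gene predictor's name, a contig and a number, and 0 of these IDs were found in the RefSeq gene table of the species. No member can therefore be given a gene name or a role, no sequence is shown, and 2 members are printed by ID while the others are identified by contig and length. For the same reason the labelled tissue was not checked against marker genes.

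The members were chosen by their measured values, so their rise with age is a description and carries no test. Levels are CPM, the count divided by the library's total and multiplied by 1000000. A member had a 12-library mean of at least 1 CPM, its lowest old library above its highest young one, old reproducing and old non-reproducing means each at least 2 times the young mean, and more than 3 reads in some young library. The first of these limits left 9357 genes, the separation of old from young left 501, the fold left 285 and the young count left 280. At the edges of the rule, the nearest member had a mean of 1.01 CPM against 0.966 CPM for the nearest gene outside, and a lower fold of 2.00 against 1.996. Its lowest old level was 1.01 times its highest young level, against 0.998 for the nearest gene outside. The young count kept out 5 genes, with 1 to 3 reads in their highest young library. Far fewer genes showed the mirror image, with every old library below every young one at a mean of at least 1 CPM. There were 32 of these, and 12 of them had both old means at most 0.5 times the young mean. These counts are on CPM of library totals, and need both old groups to lie on one side. In old non-reproducing against young females, edgeR called 849 genes higher and 468 lower, and DESeq2 1296 higher and 1322 lower (adjusted p under 0.05). In old reproducing females edgeR called 308 higher and 8 lower, and DESeq2 518 and 84. The excess of raised genes thus depended on the comparison and the method.

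In most members the old level was a few times the young level. Every library is of bulk RNA, in which a change in the number of cells of a type and a change in RNA per cell cannot be told apart. The ratio of old reproducing to young mean had a median of 2.89 over the members (interquartile range 2.36 to 4.40, highest 49.1), and that of old non-reproducing to young a median of 3.02 (2.48 to 4.48, highest 136). These ratios share the young libraries and were used to choose the members. In 127 members both ratios were under 3, in 69 the lower of the 2 was at least 4, and in 13 it was at least 10. In 56 of the 280 members the lowest old library was at least 2 times the highest young one, and in 17 it was under 1.1 times. The members therefore range from genes with a wide gap to genes that barely separate, with a median gap of 1.48-fold. Among all 10987 genes that passed a filter on low counts, every old library lay above every young one in 5.33%.

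**Figure D1:**
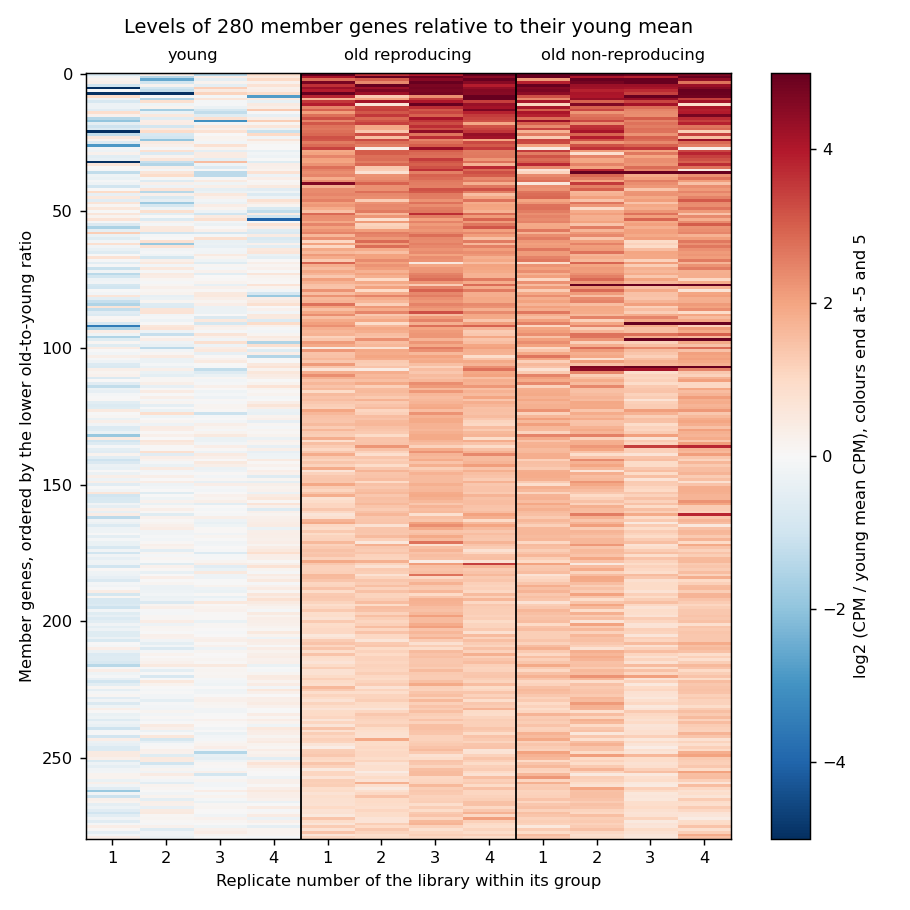
Level of each of the 280 members in each of the 12 libraries, as log2 of CPM over the young mean, ordered from the largest to the smallest lower old-to-young ratio. Old libraries of both groups lie above young throughout, as the rule requires. A few members stand out in dark red in some of old non-reproducing replicates 2 to 4 while replicate 1 stays pale.

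Seen by library, the median member stood at 0.830, 0.993, 1.01 and 1.14 times its own young mean in young replicates 1 to 4. It stood at 2.61, 2.61, 3.27 and 2.93 times that mean in old reproducing replicates 1 to 4. In old non-reproducing replicates 1 to 4 the values were 3.15, 3.25, 2.41 and 3.09. The old groups thus overlapped, and the lowest of the 8 old libraries was old non-reproducing replicate 3. This library held the lowest old value for 98 of the 280 members, more than any other. With library sizes scaled by TMM factors, which correct for a few abundant genes taking up reads, it held the lowest value for 22 members only, and old reproducing replicate 1 for 71. Its TMM factor, 0.831, was the smallest of the 12, and its median log2 deviation from the group was -0.28 over the members and -0.18 over all genes tested, the lowest of its group in both. The order of single old libraries among the members therefore depended on the scaling. Among the young, replicate 4 held the highest value for 127 members, and for 74 after TMM scaling, when replicate 3 held it for 96.

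The share of all reads that fell on members was 0.442 ± 0.191% in the young libraries, against 1.88 ± 0.772% in the old reproducing and 2.13 ± 0.581% in the old non-reproducing ones (n = 4 each, SD). A pair of very abundant members made up most of it in the old groups, with 64.4 ± 14.3% of the member reads in the old reproducing and 68.2 ± 10.5% in the old non-reproducing ones (n = 4 each, SD). Without this pair the share was 0.185 ± 0.0164% in the young, 0.590 ± 0.0459% in the old reproducing and 0.634 ± 0.0906% in the old non-reproducing libraries (n = 4 each, SD). The spread between libraries was then much smaller, so most of the unevenness in the total came from these 2 genes. The total count ranged from 16015869 to 25659597 per library.

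**Figure D2:**
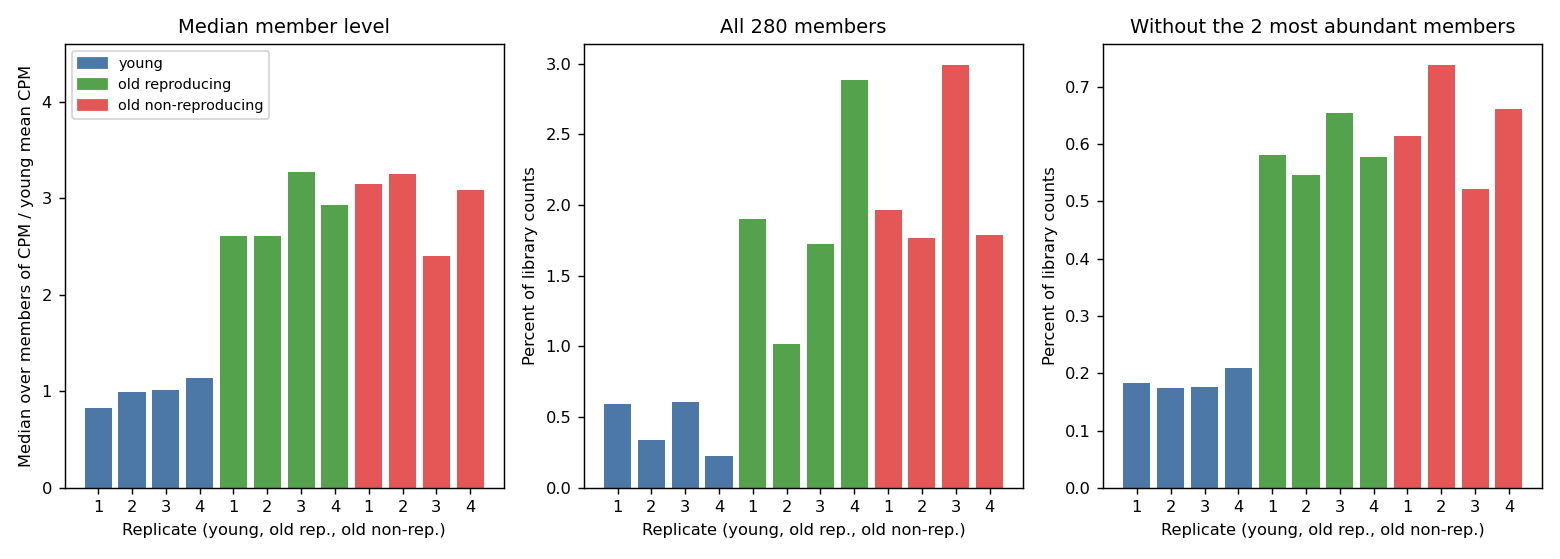
Bars give, for each library, the median over members of CPM relative to the young mean (left), the percent of the library's counts on all 280 members (middle) and the same without the 2 most abundant members (right). Old bars range from 2.41 to 3.27 on the left, and from 0.521 to 0.738% on the right against 0.174 to 0.209% in young.

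Levels were compared between members only per length, by the RPKM values that the authors deposited, in which the count is scaled by gene model length and by library size. The most abundant member was maker-000013F-snap-gene-15.70, on contig 000013F, 2260 nucleotides long, with a 12-library mean of 3817 RPKM. Its level was 1742, 677, 1885 and 68.1 RPKM in young replicates 1 to 4. In old reproducing replicates 1 to 4 it was 5271, 1966, 4525 and 8258 RPKM, and in old non-reproducing replicates 5603, 3871, 8130 and 3808 RPKM. All old libraries exceeded all young ones, yet old reproducing replicate 2 lay only just above young replicate 3, and young replicate 4 lay far below the other young libraries. Young females averaged 1093 ± 870 RPKM, old reproducing females 5005 ± 2590 RPKM and old non-reproducing females 5353 ± 2029 RPKM (n = 4 each, SD). The 2 old means differed by far less than the spread within either group, with a log2 change of 0.25 between them (SE 0.80, adjusted p = 0.971 by edgeR's quasi-likelihood test, Benjamini-Hochberg adjusted over all genes tested). Without old non-reproducing replicate 3 this change was -0.15.

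The next member by RPKM, on contig 000026F and 1005 nucleotides long, averaged 1513 RPKM. It had 183, 91.9, 88.0 and 13.5 CPM in young replicates 1 to 4. It had 1302, 234, 473 and 4440 CPM in old reproducing and 871, 1560, 6318 and 2674 CPM in old non-reproducing replicates 1 to 4. Its old libraries spanned a wide range in both groups, and the groups overlapped. As in the most abundant member, young replicate 4 was the lowest of all and old reproducing replicate 2 the lowest of the old. Its log2 change between old non-reproducing and old reproducing females was 1.05 (SE 1.01, adjusted p = 0.857 by edgeR). Single libraries moved this change, to 2.22 without old reproducing replicate 4 and to 0.13 without old non-reproducing replicate 3.

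The member ranked after these, with 246 RPKM on average, lies on contig 000013F as well and is 1431 nucleotides long. It had 79.5, 165, 74.8 and 140 CPM in young replicates 1 to 4. Old reproducing replicates held 857, 465, 166 and 339 CPM, and old non-reproducing replicates 216, 857, 487 and 377 CPM. Old reproducing replicate 3, at 166.3 CPM, was barely above young replicate 2, at 165.2 CPM, so this member lies close to the edge of the rule. The old groups overlapped, with a log2 change of 0.14 between them at an SE of 0.52 (adjusted p = 0.973 by edgeR). Beyond these, 2 further members had a mean of at least 100 RPKM, 69 had 10 to under 100, 177 had 1 to under 10 and 29 had under 1. Genes of 1 to under 10 RPKM thus formed 63.2% of the members, against 38.7% of all genes tested. The members had to reach a mean of 1 CPM and the genes tested did not, so the rule itself enters this comparison.

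The largest lower fold belonged to genemark-000011F-processed-gene-25.34, on contig 000011F and 989 nucleotides long. It was low in the young, with 0.886, 1.85, 0.563 and 2.65 CPM in replicates 1 to 4, or 128 reads in all. Old reproducing replicates 1 to 4 held 118, 18.7, 23.5 and 132 CPM, and old non-reproducing replicates 62.6, 71.6, 43.6 and 37.8 CPM. The old reproducing libraries thus fell into a high and a low pair, with the old non-reproducing libraries between them. The old reproducing mean was 49.1 times and the old non-reproducing mean 36.2 times the young mean. The log2 change between the old groups was -0.37 (SE 0.61, adjusted p = 0.931 by edgeR), and 0.011 without old reproducing replicate 1, so it had no stable direction.

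The 2 members with the next largest lower folds were scarce. One on contig 000007F, 2405 nucleotides long, had 11 reads in the 4 young libraries together, at 0.118, 0.0528, 0.169 and 0.195 CPM. Old reproducing replicates 1 to 4 had 2.27, 4.28, 4.01 and 3.06 CPM, and old non-reproducing replicates 4.20, 2.22, 1.95 and 4.43 CPM. Its old libraries were even, with means 25.5 and 23.9 times the young mean, although 11 young reads leave the size of these folds imprecise. The other, on contig 000027F and 2156 nucleotides long, had 27 young reads, and 0.355, 0.0528, 0.225 and 0.624 CPM in young replicates 1 to 4. Its old reproducing replicates had 2.16, 2.53, 7.27 and 30.9 CPM and its old non-reproducing replicates 1.37, 11.6, 10.2 and 6.79 CPM. Here the old libraries were uneven in both groups, so that a single library, old reproducing replicate 4, set much of the old reproducing mean. Between the old groups the log2 change of the former was -0.010 (SE 0.34) and that of the latter -0.34 (SE 0.87), with adjusted p-values of 0.998 and 0.961 by edgeR.

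**Figure D3:**
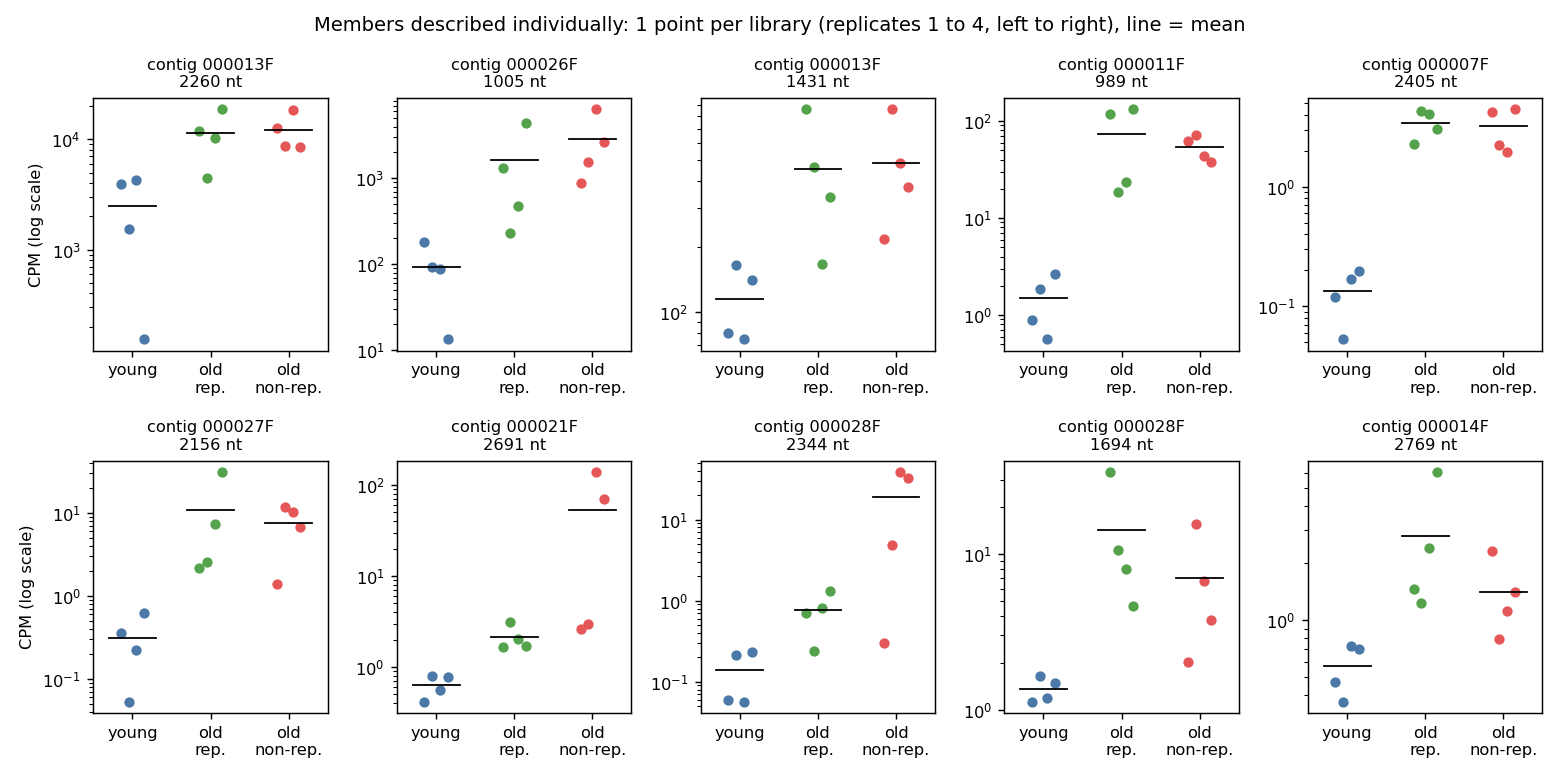
CPM on a log scale in each library for the 10 members described individually, with 1 point per library, replicates 1 to 4 from left to right, and a line at the group mean. The top row begins with the 3 most abundant members, and the members on contigs 000021F and 000028F (2344 nt) show old non-reproducing libraries in a high and a low set.

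The old non-reproducing and the old reproducing females were compared in a test over the whole table. This contrast was not used to choose the members, although the rule sets a floor under both old groups. At an adjusted p under 0.05, edgeR's quasi-likelihood test called 0 of the 279 members tested and 0% of all 10987 genes, with a lowest adjusted p of 0.158 among the members. At an unadjusted p under 0.05 it had 18 members, 6.45% of those tested, against 8.06% of all genes. A limma fit of the RPKM values called 0 members as well, and 0 genes. DESeq2 called 11 members (3.94%), against 3.16% of all genes, and each was higher in old non-reproducing females. Most of its calls went that way, with 282 of all 317 genes called higher in that group and 35 lower. Without old non-reproducing replicate 1 edgeR called 5 members (1.79%), against 2.91% of all genes, and these 5 were among the 11. In that fit 273 of all 327 genes called were higher in old non-reproducing females and 54 lower. Both sets hold the member of 2344 nucleotides on contig 000028F, which reached a mean of 1 CPM only through the old non-reproducing libraries. In each of these counts the members' share was near that of all genes or under it.

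The old means of most members were close. They lay within 1.5-fold of each other in 257 members (91.8%), against 75.4% of all genes tested. Since every member had to exceed the young level in all 8 old libraries, genes with a large difference between the old groups had less chance to be chosen. The fitted log2 change between the old groups had a median of 0.11 over the members (interquartile range -0.02 to 0.25), against -0.0029 over all genes tested (-0.26 to 0.18). It was above 0 in 196 of 279 members (70.3%), against 49.5% of all genes. On CPM without TMM scaling both medians were lower, 0.04 for the members and -0.09 for all genes, and 152 members (54.3%) lay above 0 against 36.2% of all genes. The distance of the members' median from that of all genes was 0.12 with TMM scaling and 0.13 without. The median standard error of a member's log2 change was 0.27, so a shift of this size was not detectable in a single member. Members are not replicates. Without TMM scaling, the members' median log2 deviation of an old library from its group had an SD of 0.17, more than the shift. Whether the shift exceeds the variation between libraries was not tested.

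Few members separated the old groups. All 4 old non-reproducing libraries lay above all 4 old reproducing ones in 4 members (1.43%), against 1.38% of all genes tested. The reverse order was seen in 0 members, against 3.05% of all genes, so that 4.43% of all genes were apart in either direction. With TMM scaling 12 members were apart, 4.29% against 4.22% of all genes, and all 12 were again higher in old non-reproducing females. The 4.22% holds genes apart in either direction, and its split by direction is not given here, so nothing is read from the direction of the 12. The ratios of the old means in the 4 members ran from 1.37 to 1.97. An example on contig 000023F, 1984 nucleotides long and chosen after its values were seen, had 86.5, 70.6, 58.5 and 75.6 CPM in old reproducing replicates 1 to 4. It had 113, 147, 109 and 138 CPM in old non-reproducing replicates and 46.9, 22.2, 26.7 and 40.8 CPM in young ones. This member formed a staircase from young to old reproducing to old non-reproducing with no overlap, in which the rule sets the step from young to old. The step between the old groups did not pass the adjusted threshold by edgeR (log2 change 0.87, SE 0.25, adjusted p = 0.264), while DESeq2 called it (0.89, adjusted p = 0.0428). Since the member was picked from those with the old groups apart, this call is a description and carries no test.

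**Figure D4:**
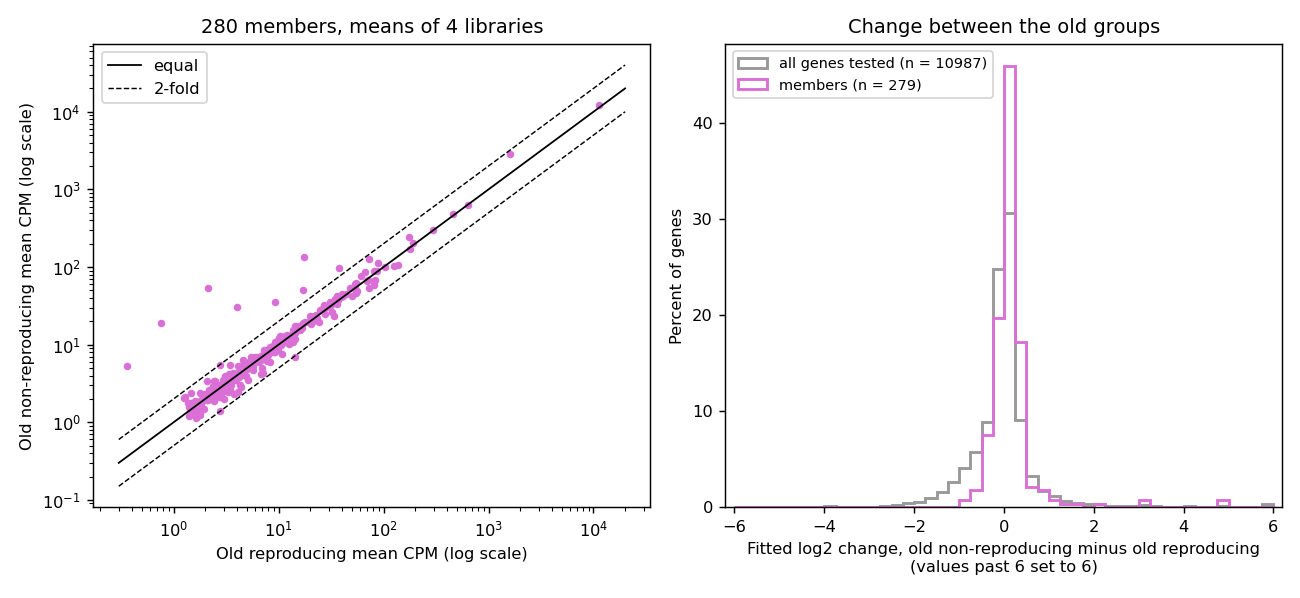
Left, mean CPM of each member in old non-reproducing against old reproducing females, on log scales, with lines at equality and at 2-fold. Right, the fitted log2 change between these groups for 279 members and for all 10987 genes tested, as percent of genes per bin. Most points lie along equality, and 8 members stand above the upper 2-fold line against 1 below the lower.

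In 8 members the old non-reproducing mean was at least 2 times the old reproducing mean (2.86% of members, against 4.22% of all genes tested), and in 1 the reverse held (0.357%, against 8.66%). These 8 were picked by that ratio, and edgeR called 0 of the 7 that were tested. Without the old non-reproducing libraries, 2 of the 8 would have averaged under 1 CPM and been left out, so the count of 8 is a description. The largest ratio was in a member on contig 000021F, 2691 nucleotides long. Its old reproducing libraries held 1.68, 3.09, 2.05 and 1.69 CPM, close to one another and above the young, which had 0.414, 0.792, 0.563 and 0.779 CPM. Old non-reproducing replicates 1 and 2, with 2.62 and 2.96 CPM, were within the old reproducing range, while replicates 3 and 4 had 139 and 70.9 CPM. The log2 change between the old groups was 4.89 (SE 1.19, adjusted p = 0.176 by edgeR). DESeq2 called it, with a log2 change of 4.90 (adjusted p = 6.73e-05). EdgeR called it without old non-reproducing replicate 1, the lowest library of its group (5.29, adjusted p = 0.0141). The member was chosen for its change between the old groups, so both calls are a description and carry no test. Without replicate 3 of that group the change was 3.64 (adjusted p = 0.483 by edgeR). With the replicate number as a block it was 3.84 (adjusted p = 0.659 by edgeR), and limma gave 2.30 on log2(RPKM + 1) and 2.90 on log2(RPKM + 0.1), with adjusted p-values of 0.685 and 0.619.

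A member on contig 000028F, 2344 nucleotides long, behaved alike in part. It had 0.704, 0.238, 0.803 and 1.31 CPM in old reproducing replicates 1 to 4, and 0.0591, 0.211, 0.0563 and 0.234 CPM, 12 reads in all, in young ones. Old non-reproducing replicate 1 held 0.300 CPM, within the old reproducing range, and replicates 2 to 4 held 4.79, 38.5 and 32.5 CPM. Without the old non-reproducing libraries this member would have averaged under 1 CPM and been left out, as would 15 members in all, so its difference between the old groups is a description with no test. Its fitted log2 change was 4.88 over all libraries and 4.14 without old non-reproducing replicate 3. Its mean in old non-reproducing females was 136 times the young mean, the highest ratio of any member, and in old reproducing females 5.45 times.

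Of the 8 members, 7 had their lowest old non-reproducing value in replicate 1, and in 7 that value was under the highest old reproducing library. In 6 of the 8, replicates 3 and 4 both exceeded every old reproducing library. The level was thus uneven within the old non-reproducing group, and the adjusted p-values of the 7 that were tested were 0.158 to 0.439 by edgeR. For the whole set of members, replicate 1 did not stand low, with a median level 1.08 times the old reproducing mean, against 1.09, 0.808 and 1.06 times in replicates 2 to 4. One of the 8, on contig 000001F and 4377 nucleotides long, did not pass the filter on low counts and is the single member without a test. It had 1, 2, 1 and 5 reads in young and 8, 5, 8 and 7 in old reproducing libraries, and 14, 7, 366 and 74 reads in old non-reproducing replicates 1 to 4. This member, too, reached a mean of 1 CPM only through the old non-reproducing libraries, so its difference between the old groups is a description.

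In the opposite direction, differences were smaller. A member on contig 000028F, 1694 nucleotides long, had 33.5, 10.6, 8.03 and 4.62 CPM in old reproducing replicates 1 to 4 and 2.02, 15.5, 6.73 and 3.77 CPM in old non-reproducing ones, against 1.12, 1.64, 1.18 and 1.48 CPM in young. The groups overlapped, and the higher old reproducing mean rested on replicate 1 (log2 change -0.99, SE 0.67, adjusted p = 0.770 by edgeR), since without it the change was -0.059. A member on contig 000014F, 2769 nucleotides long, had 1.46, 1.23, 2.41 and 6.06 CPM in old reproducing and 2.32, 0.798, 1.11 and 1.40 CPM in old non-reproducing replicates 1 to 4, against 0.473, 0.370, 0.732 and 0.701 CPM in young. Its groups overlapped too. The log2 change between them, -0.86 with an SE of 0.50 (adjusted p = 0.724 by edgeR), was -0.20 without old reproducing replicate 4.

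The members were spread over 70 of the 183 contigs that carried a tested gene. The contig with the most, 000000F, held 25 members among 877 tested genes, 2.85%, close to the 2.55% of all tested genes that were members. Higher shares were seen on several contigs. Among them were 000028F, with 16 of 257 (6.23%), 000047F, with 7 of 72 (9.72%), and 000070F, with 4 of 20 (20.0%). Others included 000027F, with 4 of 40 (10%), and 000037F, with 3 of 26 (11.5%). These contigs were picked for their shares, so no test is given.

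Members also tended to have neighbouring IDs. An ID ends in a pair of numbers joined by a point, and genes that share contig and first number are taken here as one stem. In 53 stems there were at least 2 members, which together held 126 of the 280. Counted once for each member, 6.0% of the other tested genes on its stem were members too, against 2.55% of all tested genes. The 2177 tested genes that shared a stem with a member without being one were near the level of other genes. Their median log2 change from young was -0.037 in old reproducing females, where all genes tested had -0.031, and 0.0041 in old non-reproducing females, where all genes tested had -0.0021. The coordinates of the models and the use of strand in counting are not given in the sources used here, so neighbouring models that overlap may share reads.

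On contig 000191F, 4 of the 5 tested genes of 1 stem were members, with lengths of 2214 to 5352 nucleotides. Their ratios to the young mean were alike, 3.36 to 4.86 in old reproducing and 3.46 to 5.22 in old non-reproducing females. The most abundant of them had 15.8, 10.2, 11.7 and 11.2 CPM in young, 38.5, 43.0, 53.3 and 29.3 CPM in old reproducing and 51.8, 40.2, 34.5 and 45.1 CPM in old non-reproducing replicates 1 to 4. In it the old groups covered nearly the same range, as their ratios of 0.886 to 1.07 over the 4 members also show. A stem of contig 000070F held 4 members among 7 tested genes, with ratios of 3.63 to 5.69 in old reproducing and 3.37 to 5.18 in old non-reproducing females. All 4 were scarce, from 0.236 to 1.41 CPM in young libraries and from 1.65 to 4.72 CPM in old ones.

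**Figure D5:**
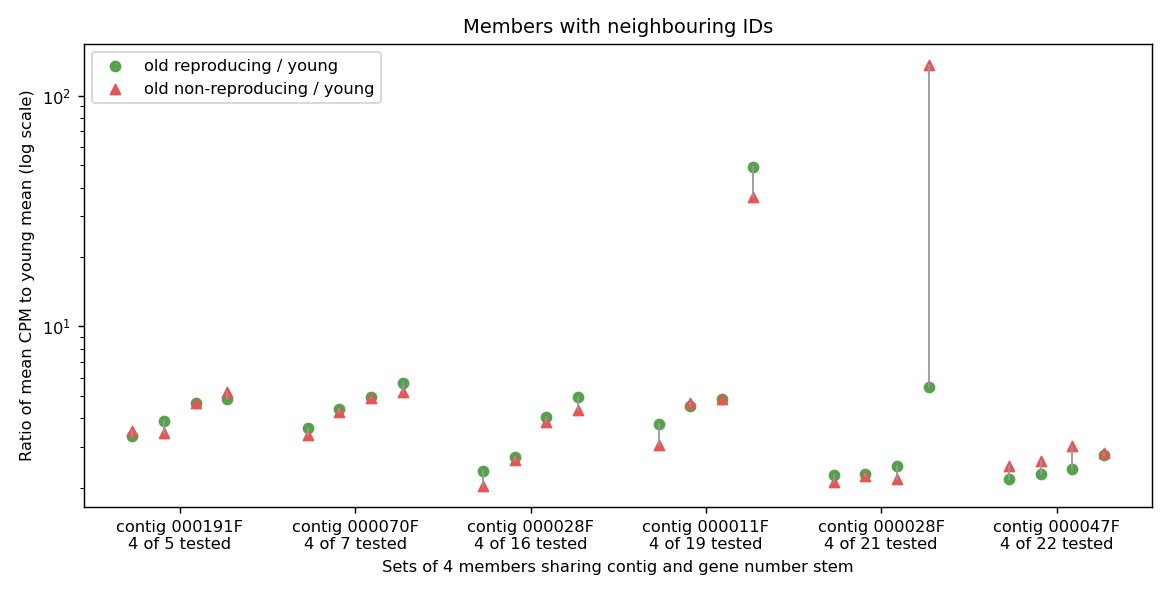
Ratio of the old reproducing mean (circles) and the old non-reproducing mean (triangles) to the young mean, on a log scale, for members of the 6 stems that held 4 members each, with the number of tested genes on the stem. Most ratios lie between 2 and 6 with the 2 symbols close together. The exceptions are the member with the largest lower fold, on contig 000011F, and the member on contig 000028F with a ratio of 136 in old non-reproducing females.

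Some members of one stem had the same high and low libraries. Besides the very abundant member on contig 000026F, the same stem held a member of 4242 nucleotides with 30.3, 3.09, 61.0 and 39.8 CPM in old reproducing and 4.33, 49.1, 35.9 and 3.64 CPM in old non-reproducing replicates 1 to 4, against 1.66 to 2.69 CPM in young. The other member of that stem, of 1817 nucleotides, had 6.82, 0.831, 13.03 and 7.43 CPM in old reproducing and 0.900, 7.98, 7.52 and 0.789 CPM in old non-reproducing replicates, against 0.591 to 0.732 CPM in young. Both were low in old reproducing replicate 2 and in old non-reproducing replicates 1 and 4, and high in the other 5 old libraries, a division that does not follow reproduction. The abundant member of the stem did not share this division.

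A pair on contig 000003F, both among the 8 members with a ratio of at least 2, was likewise parallel. One, of 2802 nucleotides, had 12.9, 13.5, 11.4 and 32.7 CPM in old reproducing and 13.8, 177, 159 and 187 CPM in old non-reproducing replicates 1 to 4. Its neighbour of 681 nucleotides had 3.41, 3.48, 2.90 and 6.43 CPM and 3.47, 32.7, 41.3 and 45.3 CPM in the same libraries. Old non-reproducing replicate 1 was at the old reproducing level in both, and old reproducing replicate 4 was the highest of its group in both. The old non-reproducing mean was 7.62 and 7.57 times the old reproducing mean. In edgeR's test the log2 changes were 3.06 (SE 0.69) and 3.07 (SE 0.66), at adjusted p-values of 0.163 and 0.158. Without old non-reproducing replicate 1 edgeR called both (3.45 for each, adjusted p = 0.000988 and 0.000489). That replicate is the library of its group in which both were low, and the pair was chosen after its values were seen. The calls without it are therefore a description and carry no test.

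The gene models of members had a median length of 1310 nucleotides (interquartile range 838 to 2408), against 2204 (1160 to 3785) for all genes tested, and 93 of 280 (33.2%) were under 1000 nucleotides against 20.7%. Their mean level per length had a median of 4.65 RPKM (2.16 to 10.4) against 5.35 RPKM (1.14 to 19.7) for all genes tested, on which the rule's floor of 1 CPM was not set. The kind of gene model differed little, in that IDs beginning with maker made up 76.4% of the members and 76.5% of the genes tested, and those beginning with genemark 11.8% and 10.1%. By the median, the members varied within a group about as much as other genes. The median standard deviation of log2(CPM + 0.5) was 0.32 over members and 0.36 over all genes tested in young, 0.30 and 0.29 in old reproducing, and 0.34 in both in old non-reproducing libraries. The upper quartile was 0.42 over members against 0.70 in young, 0.41 against 0.44 in old reproducing and 0.48 against 0.51 in old non-reproducing libraries. The rule puts every old library above the highest young one, so genes uneven among the young had less chance to be chosen.

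By edgeR's quasi-likelihood test, 212 of the 279 members tested were called higher in old reproducing than in young females, where 2.8% of all genes were, and 267 were called higher in old non-reproducing females, where 7.73% were. These contrasts chose the members, so nothing is read from the counts. Separation of the libraries and the call are different measures, and the most abundant member, at 68.1 to 1885 RPKM among the young, was called in neither contrast.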

How the data were processed

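RNA of 12 libraries was sequenced. Total RNA was made into libraries with the NEBNext Ultra II Directional kit, per the labels' protocols, and STAR and SAMtools are named in the submitters' processing notes, without version. The counting program, genome build and strand setting are not given in the sources used here. The deposited tables hold read counts, not normalized, and RPKM values calculated by the authors, per the file headers. Libraries were grouped by their titles. Every pair of replicates differed beyond counting noise (chi-square per degree of freedom at least 83.4). The labels do not say that replicates are separate animals or cultures, and p-values measure the spread between libraries, which may be partly technical.

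Members were found by their CPM on library totals, and lengths were recovered from counts and RPKM. Members, lists and tests were chosen with earlier results of these data known. Counts were fitted in R 4.3.3 with edgeR 4.0.16 over all 12 libraries (filterByExpr, which kept 10987 genes and 279 members; TMM factors; robust quasi-likelihood; 1 mean per group; two-sided, called at an adjusted p under 0.05). Standard errors are the absolute log2 change over the square root of F. The fits were tested on simulated data. Alternatives used DESeq2 1.42.0, limma 3.58.1 on log2(RPKM + 1) and log2(RPKM + 0.1), other scalings, no filter, 8 libraries, a replicate block, and each library left out. Described individually were the 3 members first by mean RPKM, the 3 first by lower fold, and the 2 with the largest fitted change between the old groups in each direction. The first by RPKM and the first by fold are printed by ID. The pair on contig 000003F, the member on contig 000023F and the stems were chosen after their values were seen. At 16015869 to 25659597 counts per library, counting error is small except for members with few young reads.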

Additional observations from a re-analysis of the deposited data

Results flagged for a closer look

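In 1 of 39 groups of 4 values, covering 3 library measures and the 10 members described individually, a library stood apart by Dixon's ratio, its gap to the next library as a part of the group's range. About 1 in 20 groups, or 1.95 here, does so by chance. The share of reads on members was 2.99% in old non-reproducing replicate 3, against 1.77 to 1.97% in the other 3 libraries of that group (ratio 0.837). Without the 2 most abundant members the same library had the lowest share of its group, 0.521%.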

How the results depend on the processing

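The rule gave 280 members, 428 with a fold of at least 1.5, 117 with a fold of at least 3 and 146 with a mean of at least 5 CPM. TMM-scaled sizes gave 247, of which 237 were the same genes, and DESeq2 size factors gave 227, of which 220 were the same. Leaving out 1 library gave 260 to 365. Members called between the old groups numbered 0, with 11 by DESeq2 and 0 to 5 when 1 library was left out, the 5 without old non-reproducing replicate 1. Members called in old reproducing females against young numbered 212, and 106 at an adjusted p under 0.01, where 1.17% of all genes were called. In old non-reproducing females they numbered 267, and 168 at that limit, where 2.79% were called. Fewer calls follow from the stricter limit itself; for the other counts the cause was not tested. The replicate block left 141 called in old reproducing females, where 1.67% of all genes were. Same-numbered libraries showed no common deviation (correlations of -0.47 to 0.36, over 0.1 in 3 of 12 pairs, and 0 libraries correlated best with their own number). No pairing by number was thus seen, though with 4 libraries per group this check cannot exclude one. Members with the old groups apart numbered 4, 12 with TMM scaling, and 5 to 18 without 1 old library, the most without old non-reproducing replicate 3 (6.43% of members, against 7.59% of all genes tested). The median log2 change between the old groups, 0.11, ran from 0.08 to 0.16 without 1 library. For single members that change crossed 0 in some fits. It ran from -0.15 to 0.55 without 1 library for maker-000013F-snap-gene-15.70, and from -0.68 to 0.011 for genemark-000011F-processed-gene-25.34, which had 0.040 with the replicate block and 0.017 and 0.027 on log2(RPKM + 1) and log2(RPKM + 0.1). It ran from -0.19 to 0.67 for the member of 1431 nucleotides on contig 000013F. For that on 000007F it ran from -0.21 to 0.16, with 0.017 by DESeq2 size factors and 0.017 by DESeq2's test. For that on 000027F it ran from -0.68 to 1.03, with 0.23 under the replicate block.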
